A study of Mus musculus with 17 samples.

Results

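The 38 antioxidant and NRF2 response genes described here are the transcription factor gene Nfe2l2 and its inhibitor gene Keap1, together with genes for detoxification of heme and quinones, glutathione and thioredoxin enzymes, peroxiredoxins, superoxide dismutases, catalase, iron storage and export proteins, metallothioneins and enzymes of the pentose phosphate pathway. They were chosen by gene symbol, and all 38 were found among the 20328 genes of the RNA-seq table and passed its filter on low counts. In the other tables they account for all 38 symbols in scRNA-seq, for 42 of 11424 H3K27ac regions and for 0 of 3582 ATAC-seq regions.

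Wild-type mice of the ICR strain received 6-hydroxydopamine (6-OHDA), a toxin that is taken up by dopaminergic neurons, on 1 side of the substantia nigra at 8 weeks of age. This 6-OHDA-induced PD model was compared with sham controls and with an NDST3-treated PD model, which received 2 µL of an AAV9 vector carrying the human heparan sulfate enzyme gene NDST3 at the lesioned site 5 days later. The vector used the CMV promoter, which is active in many cell types, and the lesioned mice without NDST3 received saline. RNA-seq covered 2 sham, 1 lesioned and 2 NDST3-treated libraries, and the labels give the tissue only as brain. The number of animals behind each library is not given in the sources used here, so the p-values measure the spread between these libraries, which may be technical, and the level of the human transgene was not analysed here.

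NRF2, the product of Nfe2l2, is a transcription factor that KEAP1 holds in the cytoplasm and directs to degradation. Oxidants and electrophiles modify KEAP1, after which NRF2 enters the nucleus, pairs with small MAF proteins and binds antioxidant response elements, while BACH1 competes for related elements. In the brain this system is more active in astrocytes than in neurons, and heme oxygenase 1, ferritin and the metallothioneins are also induced in myeloid cells by heme, metals and inflammation.

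The core of the antioxidant response element, TGACNNNGC on either strand, was looked for in RefSeq promoters (GRCm38.p6), each running from 250 bases before to 50 bases after a start site. Of the 38 genes, 31 matched the promoter table by symbol, and Hmox1, Gclc, Gsr, Gsta4, Prdx6, Sod3 and Slc40a1 did not. The core was found in promoters of 9 of the 31 genes (29.0%), namely Nfe2l2, Gclm, Txnrd1, Srxn1, Prdx1, Sod1, Mt2, G6pdx and Pgd, and in 14.0% of the 27025 genes of the table. Metal response element cores, written TGCACNC or TGCGCNC, were present in 14.2% and 17.0% of all genes. Of the 31 members, 5 (16.1%) had TGCACNC and 7 (22.6%) had TGCGCNC. Both occurred in Mt1 and Mt2. The other members with TGCACNC were Gstm1, Mt3 and Pgd, and those with TGCGCNC were Gclm, Srxn1, Txnip, Prdx4 and G6pdx. A match is only a match of letters, and the windows below are shown because genes with the same core rose, fell or did not pass the test in the 6-OHDA-induced PD model. Capitals mark the core, which reads as TGACNNNGC in Nfe2l2 and Mt2 and as its reverse complement in the others.
Nfe2l2 (chr2:75704854-75704913, minus strand, -250 to -191 from the start site, RNA higher): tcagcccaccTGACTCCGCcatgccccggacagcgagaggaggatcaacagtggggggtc
Prdx1 (chr4:116685440-116685499, plus strand, -159 to -100, RNA higher): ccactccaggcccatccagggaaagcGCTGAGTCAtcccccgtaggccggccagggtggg
Mt2 (chr8:94172513-94172572, plus strand, -105 to -46, RNA higher): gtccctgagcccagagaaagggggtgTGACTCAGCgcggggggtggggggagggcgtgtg
Gclm (chr3:122245397-122245456, plus strand, -160 to -101, RNA not past the threshold): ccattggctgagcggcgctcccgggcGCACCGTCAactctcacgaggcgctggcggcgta
Txnrd1 (chr10:82859088-82859147, plus strand, -118 to -59, RNA not past the threshold): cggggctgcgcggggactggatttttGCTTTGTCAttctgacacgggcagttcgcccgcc
G6pdx (chrX:74428904-74428963, minus strand, -83 to -24, RNA not past the threshold): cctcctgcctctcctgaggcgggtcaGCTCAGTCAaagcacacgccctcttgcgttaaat
Sod1 (chr16:90220680-90220739, plus strand, -82 to -23, RNA lower): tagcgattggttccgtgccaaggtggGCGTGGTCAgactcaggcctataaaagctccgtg

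The RNA-seq libraries held 51003699 to 70533326 counts, and levels are given as CPM, counts scaled to library size, with TMM factors. The libraries differed in markers of cell types, as the plot of summed marker CPM shows. Counts of markers higher or lower in the lesion are from the edgeR test given below. By that test 18.8% of all tested genes were higher than in sham and 17.1% were lower. Markers of microglia summed to 537 and 386 CPM in sham, 3680.3 CPM in the 6-OHDA-induced PD model and 1298 and 1926 CPM in the NDST3-treated PD model, and 7 of 7 tested were higher in the lesion than in sham. Those of monocytes or macrophages summed to 201, 41.6, 2885, 636 and 1088 CPM in the same order, and 3 of 7 were higher. Astrocyte markers summed to 5166, 4229.9, 11450.4, 6513 and 7282 CPM (5 of 8 higher), and erythrocyte markers to 711, 404, 1817, 349 and 350.4 CPM (5 of 5 higher). Neuron markers went the other way, from 7414 and 8236 CPM in sham to 2634 CPM in the lesion (10 of 10 lower) and 6608 and 5605 CPM with NDST3, and dopaminergic markers went from 747 and 702 to 28.0 CPM (9 of 9 lower) and then 131 and 94.2 CPM. Smooth muscle, mural and fibroblast markers summed to 480.0, 324, 1325, 240.2 and 307 CPM (6 of 8 higher), and replicate 2 of the NDST3-treated PD model stood apart in choroid plexus markers, with 1134 CPM against 9.98 to 52.9 CPM elsewhere. These sums moved with many results below, and their part in those results was not tested. In bulk tissue, fewer cells of a type and less RNA per cell cannot be told apart.

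**Figure D1:**
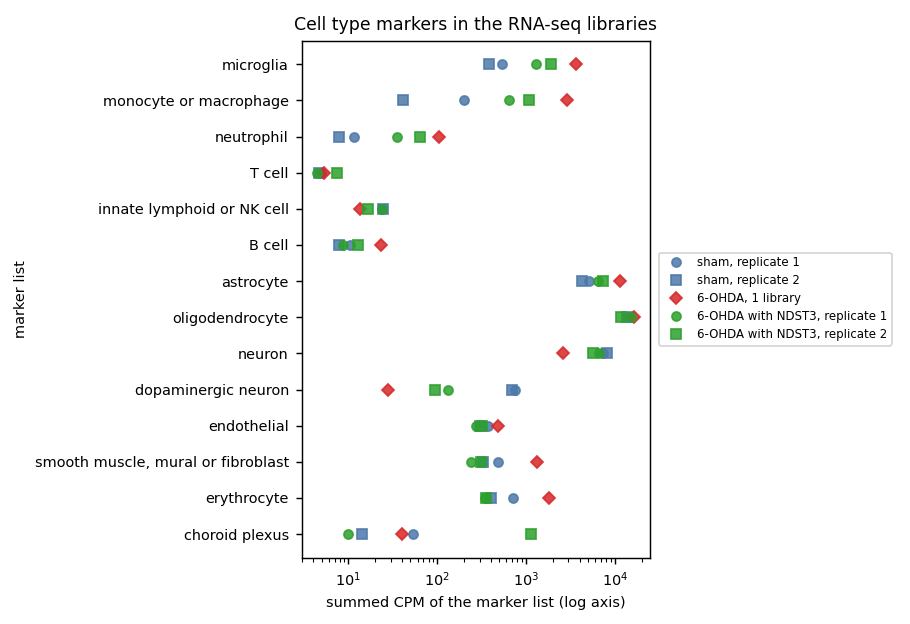
Summed CPM (log axis) of each marker list in the 5 RNA-seq libraries, 1 point per library. Microglia, macrophage, astrocyte, mural and erythrocyte sums are highest in the 6-OHDA library, and neuron and dopaminergic neuron sums are lowest in it.

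In TPM, which also divides by gene length, the genes spanned a wide range in sham. Fth1, the ferritin heavy chain, was the highest at 5115 ± 195 TPM (SD, n = 2), followed by Sod1 at 756 ± 14.3, Mt1 at 739 ± 201 and Ftl1 at 694 ± 157 TPM. The order of Sod1, Mt1 and Ftl1 was within the spread of the sham libraries. The lowest were Hmox1 at 14.6 ± 4.72, Nqo1 at 11.4 ± 3.04 and the iron exporter gene Slc40a1 at 7.78 ± 0.720 TPM. In the 6-OHDA library Fth1 was still the highest, at 6903 TPM, and Ftl1 reached 4700.3 TPM.

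To ask how the lesion changed these genes, the 6-OHDA library was compared with sham. Of the 38 genes, 17 were higher and 6 were lower at an adjusted p below 0.05 (quasi-likelihood test of edgeR, Benjamini-Hochberg adjustment over 19300 genes), where 18.8% of all tested genes were higher and 17.1% were lower. The members' median log2 fold change was 0.50, beside -0.0025 over all tested genes. Hmox1, Ftl1, Mt2, Prdx6 and Nfe2l2 had the largest rises, and Sod2, Gsta4 and Sod1 the largest falls. By the rule of a 2-fold or larger change and a raw p below 0.05, 10 members were higher (14.4% of all genes) and 0 were lower (10.1% of all genes). The 6-OHDA group is 1 library, which the fit assumes to vary like the other groups. The calls rest on both sham libraries, since without either of them edgeR made no calls in the whole table. The members' median log2 fold change was then 0.60 (without replicate 1) and 0.43 (without replicate 2), beside 0.013 and 0.0088 over all genes. With all libraries 27 members had an edgeR raw p under 0.05, as did 9239 of all 19300 genes. DESeq2 on all 5 libraries called 20 members higher and 6 lower, beside 3663 and 3840 of 20328 genes.

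**Figure D2:**
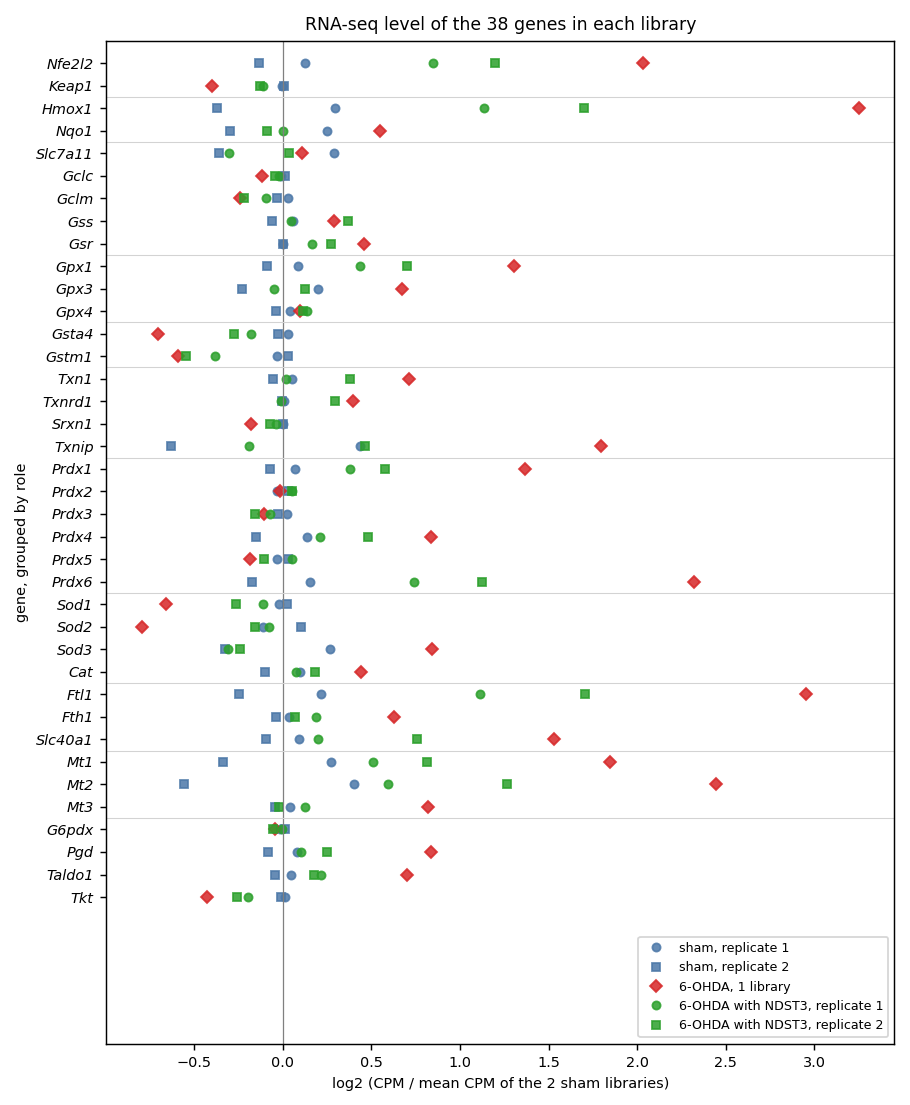
Level of each gene in each of the 5 libraries, as the log2 ratio of its CPM to the mean CPM of the 2 sham libraries, with genes grouped by role. The 6-OHDA library is the rightmost point for Hmox1, Ftl1, Mt2, Prdx6 and Nfe2l2, and the NDST3 libraries lie between it and the sham libraries for these genes.

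The regulators moved in opposite directions. Nfe2l2 (NCBI Gene 18024, GRCm38 chromosome 2, 75675513 to 75704663) had 26.4 and 22.1 CPM in sham, 99.3 CPM in the 6-OHDA-induced PD model and 43.7 and 55.7 CPM in the NDST3-treated PD model. The groups did not overlap, and the lesion was above sham by 2.03 ± 0.19 on the log2 scale (SE; edgeR adjusted p = 0.00823), a 4.10-fold difference. Keap1, which encodes the adaptor that marks NRF2 for degradation, fell by 0.40 ± 0.10 (edgeR adjusted p = 0.0311), from 81.1 and 81.9 CPM in sham to 61.7 CPM. With NDST3, Keap1 stood at 75.4 and 74.4 CPM, between the other groups.

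Among the detoxification enzymes, Hmox1 (NCBI Gene 15368), which opens the heme ring and releases iron, carbon monoxide and biliverdin, had the largest rise of the 38 genes. Its locus is 75093618 to 75100593 on GRCm38 chromosome 8, and its level was 11.5 and 7.26 CPM in sham, 89.4 CPM in the lesion and 20.6 and 30.5 CPM with NDST3. The lesion was 9.54-fold above sham (log2 3.25 ± 0.35, edgeR adjusted p = 0.00823). Nqo1, a quinone reductase and a widely used NRF2 target, had 8.64 and 5.92 CPM in sham against 10.6 CPM in the lesion and 7.29 and 6.84 CPM with NDST3. Its difference of 0.55 ± 0.27 did not pass the test (edgeR adjusted p = 0.176).

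Of the genes that supply glutathione, 1 of 5 passed the test. Slc7a11, the cystine transporter, had 70.2 and 44.8 CPM in sham and 61.8 CPM in the lesion. Gclc and Gclm, the catalytic and modifier subunits of the first enzyme of glutathione synthesis, had 54.1 and 54.9 against 50.3 CPM, and 43.1 and 41.3 against 35.8 CPM. Gss, glutathione synthetase, had 18.4 and 17.0 against 21.6 CPM, and none of these 4 passed the test (edgeR adjusted p from 0.183 for Gclm to 0.804 for Slc7a11). Gsr, which reduces oxidized glutathione, was the gene called, at 34.4 and 34.5 CPM in sham and 47.4 CPM in the lesion (log2 0.46 ± 0.11, edgeR adjusted p = 0.0332).

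Of the glutathione peroxidases, Gpx1, the cytosolic enzyme that reduces hydrogen peroxide, rose 2.47-fold (log2 1.31 ± 0.15, edgeR adjusted p = 0.00847), from 82.1 and 72.5 CPM in sham to 191 CPM. The secreted Gpx3 had 86.1 and 63.8 CPM in sham and 119 CPM in the lesion, just outside the threshold (edgeR adjusted p = 0.055). Gpx4, which reduces lipid peroxides in membranes, had 222 and 210.3 CPM in sham and 231 CPM in the lesion (edgeR adjusted p = 0.516). Both glutathione transferases fell, Gsta4, which conjugates the lipid peroxidation product 4-hydroxynonenal, from 51.0 and 49.0 to 30.7 CPM (log2 -0.71 ± 0.12, edgeR adjusted p = 0.0125) and Gstm1 from 154 and 161 to 105 CPM (log2 -0.59 ± 0.12, edgeR adjusted p = 0.0211). Reads of Gstm1 can be shared with its close paralogs, and those of Ftl1, Gpx4 and Prdx2 with pseudogenes listed in the same table, so their levels are uncertain to that extent.

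In the thioredoxin system, Txn1, the small protein that reduces peroxiredoxins, rose from 47.0 and 43.7 CPM in sham to 74.3 CPM in the lesion (log2 0.71 ± 0.17, edgeR adjusted p = 0.0315). Txnip, the thioredoxin-binding inhibitor, was called higher too (log2 1.80 ± 0.47, edgeR adjusted p = 0.0397), but its sham libraries were far apart at 38.9 and 18.5 CPM, with 99.8 CPM in the lesion. Txnrd1, thioredoxin reductase, had 81.0 and 80.4 CPM in sham and 106 CPM in the lesion (log2 0.40 ± 0.15, edgeR adjusted p = 0.0997). Srxn1, which repairs over-oxidized peroxiredoxins and is regarded as an NRF2 target, had 142 and 143 CPM in sham and 126 CPM in the lesion (edgeR adjusted p = 0.208).

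Peroxiredoxins, which remove hydrogen peroxide, divided into 3 that rose and 3 that did not pass the test. Prdx6 (NCBI Gene 11758), the form that uses glutathione, on GRCm38 chromosome 1 (161240112 to 161251210), had 193 and 153 CPM in sham, 865 CPM in the lesion and 289.7 and 378 CPM with NDST3. It rose 4.99-fold (log2 2.32 ± 0.22, edgeR adjusted p = 0.00823), and no library of another group reached the 6-OHDA level. Prdx1 had 165 and 150.0 CPM in sham and 407 CPM in the lesion (log2 1.37 ± 0.13, edgeR adjusted p = 0.00823), and Prdx4, the form of the endoplasmic reticulum, had 17.2 and 14.1 against 28.0 CPM (log2 0.84 ± 0.19, edgeR adjusted p = 0.0289). Prdx2, abundant in neurons and red cells, had 201 and 209.8 CPM in sham and 203 CPM in the lesion. The mitochondrial Prdx3 (73.8 and 71.2 against 67.4 CPM) and Prdx5 (196 and 205 against 176 CPM) also did not pass (edgeR adjusted p from 0.279 to 0.917 for these 3).

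The superoxide dismutases of the cytosol and mitochondria fell. Sod1 went from 194 and 200.2 CPM in sham to 125 CPM in the lesion (log2 -0.66 ± 0.12, edgeR adjusted p = 0.0159), and Sod2 from 179 and 208 to 111 CPM (log2 -0.80 ± 0.14, edgeR adjusted p = 0.0143). The extracellular Sod3 had 25.8 and 17.2 CPM in sham and 38.5 CPM in the lesion (edgeR adjusted p = 0.0567), and catalase (Cat) had 97.5 and 85.1 against 124 CPM (edgeR adjusted p = 0.0501), both just outside the threshold.

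All 3 iron genes rose. Ftl1 (NCBI Gene 14325, GRCm38 chromosome 7, 45457944 to 45459886), the ferritin light chain, had 319 and 232 CPM in sham, 2139 CPM in the lesion and 596 and 900.0 CPM with NDST3. Its rise was 7.76-fold (log2 2.96 ± 0.31, edgeR adjusted p = 0.00823), while Fth1 rose 1.55-fold, from 2024 and 1922 to 3051 CPM (log2 0.63 ± 0.16, edgeR adjusted p = 0.0358). Slc40a1, ferroportin, the iron exporter, rose from 11.5 and 10.1 to 31.1 CPM (log2 1.53 ± 0.25, edgeR adjusted p = 0.0129).

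Metallothioneins, small metal-binding proteins, rose as well. Mt2 had 133 and 68.5 CPM in sham and 549 CPM in the lesion (log2 2.45 ± 0.45, edgeR adjusted p = 0.0158), and Mt1 had 214 and 140.1 against 635 CPM (log2 1.85 ± 0.27, edgeR adjusted p = 0.0105). Mt3, the form enriched in the nervous system, had 122 and 115 against 208 CPM (log2 0.82 ± 0.11, edgeR adjusted p = 0.00963). The 3 genes lie within chromosome 8 of GRCm38 between 94152607 and 94180327. Among the enzymes of the pentose phosphate pathway, which supplies NADPH, Pgd rose from 59.1 and 52.7 to 99.9 CPM (log2 0.84 ± 0.12, edgeR adjusted p = 0.0105) and Taldo1 from 111 and 105 to 176 CPM (log2 0.70 ± 0.10, edgeR adjusted p = 0.0100). Tkt fell from 269 and 265 to 199 CPM (log2 -0.43 ± 0.11, edgeR adjusted p = 0.0363), and G6pdx, the entry enzyme, had 68.6 and 70.0 against 67.1 CPM (edgeR adjusted p = 0.743).

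The NDST3-treated PD model was next compared with the 6-OHDA-induced PD model, which shares the same 6-OHDA library with the comparison above. In this comparison 10 genes were lower and 1 was higher at an adjusted p under 0.05 (edgeR), where 6.59% and 9.06% of all tested genes were. The genes that fell were Nfe2l2, Hmox1, Gpx1, Prdx1, Prdx6, Sod3, Ftl1, Mt3, Pgd and Taldo1, and the gene that rose was Sod2. The members' median log2 fold change was -0.40, beside 0.0029 over all tested genes. By the 2-fold rule, 8 members were lower (8.37% of all genes) and 0 were higher (7.3% of all genes).

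**Figure D3:**
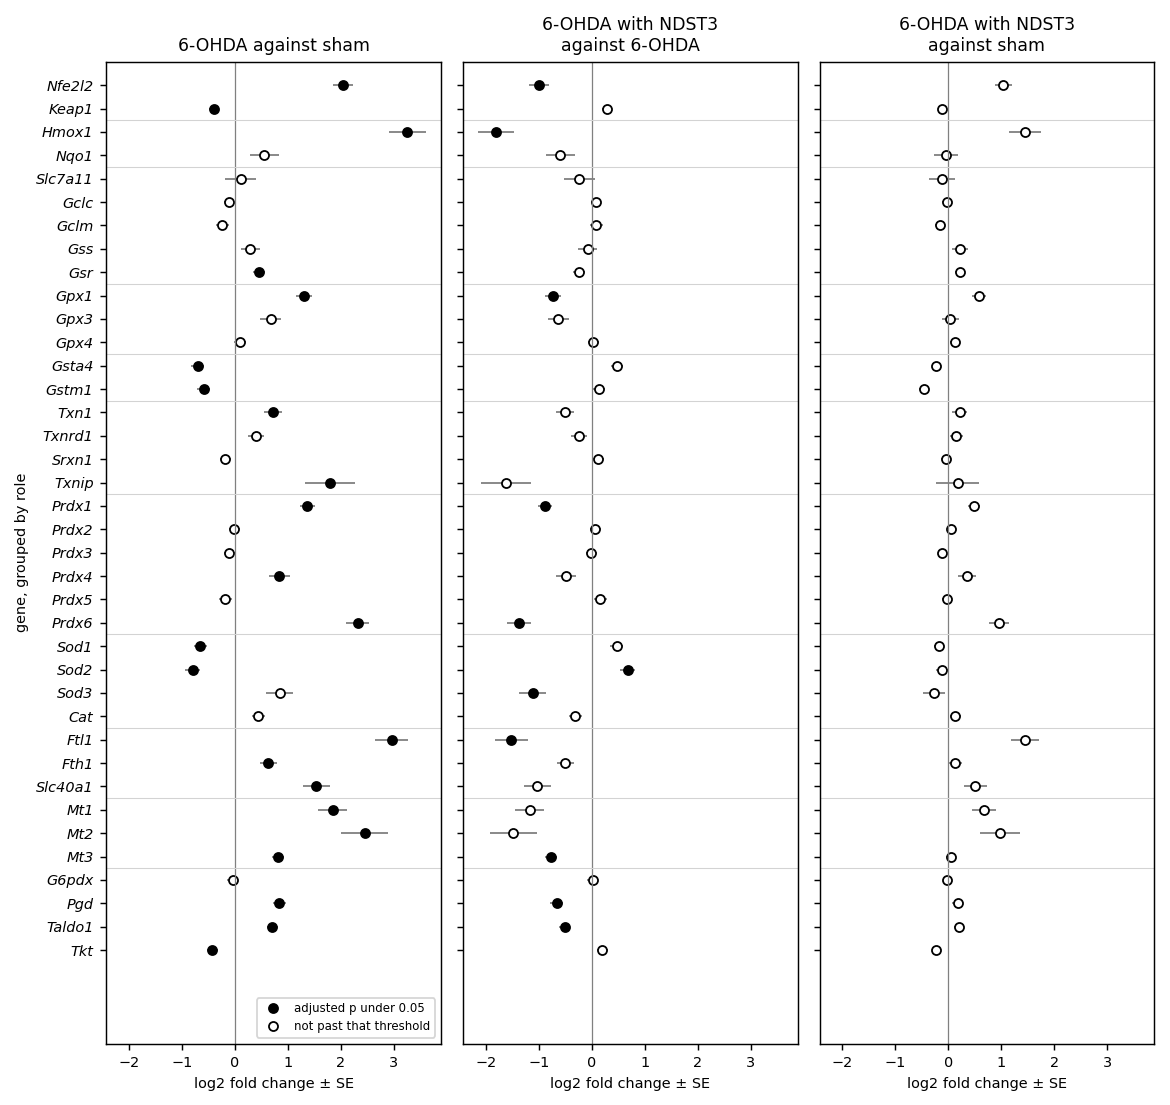
Log2 fold change of each gene in the 3 comparisons from edgeR, with bars of 1 SE and filled points at an adjusted p under 0.05. Filled points number 23 in the first panel, 11 in the second and 0 in the last.

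Hmox1 had the largest of these falls, by 1.81 ± 0.34 on the log2 scale (edgeR adjusted p = 0.038), followed by Ftl1, which fell by 1.52 ± 0.31 (edgeR adjusted p = 0.0417), and Prdx6, which fell by 1.37 ± 0.22 (edgeR adjusted p = 0.0344). Sod3 had 17.4 and 18.2 CPM with NDST3 against 38.5 CPM in the lesion (log2 -1.11 ± 0.25, edgeR adjusted p = 0.048), and Nfe2l2 fell by 1.00 ± 0.19 (edgeR adjusted p = 0.0386). Prdx1, at 205 and 235 CPM against 407 CPM, fell by 0.89 ± 0.14 (edgeR adjusted p = 0.0339). Mt3, at 129 and 116 CPM against 208 CPM, fell by 0.77 ± 0.11 (edgeR adjusted p = 0.0336). Gpx1, at 105 and 126 CPM, fell by 0.73 ± 0.15 (edgeR adjusted p = 0.0432), Pgd fell by 0.66 ± 0.13 (edgeR adjusted p = 0.0384) and Taldo1 fell by 0.51 ± 0.10 (edgeR adjusted p = 0.0412). Sod2, the mitochondrial dismutase, rose to 183 and 173 CPM from 111 CPM (log2 0.68 ± 0.14, edgeR adjusted p = 0.0418).

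Several genes lay close to the threshold in this comparison. Mt1, at 252 and 311 CPM with NDST3 against 635 CPM, had a log2 fold change of -1.17 ± 0.28 (edgeR adjusted p = 0.0511), Slc40a1 one of -1.02 ± 0.26 (edgeR adjusted p = 0.0563), Gsta4 one of 0.48 ± 0.11 (edgeR adjusted p = 0.0523) and Sod1 one of 0.47 ± 0.12 (edgeR adjusted p = 0.0575). Mt2, at 152 and 242 CPM, and Txnip, at 25.2 and 39.6 CPM, differed from the lesion by -1.48 ± 0.45 and -1.62 ± 0.47 and did not pass (edgeR adjusted p = 0.0809 and 0.0755). The glutathione synthesis genes Slc7a11, Gclc, Gclm and Gss had differences between -0.23 and 0.08. The calls rest on every library of the replicated groups except 1. Without sham replicate 1, sham replicate 2 or NDST3 replicate 1, edgeR made almost no calls in the whole table, and the members lost theirs. Their median log2 fold change was then -0.40, -0.40 and -0.30, beside 0.0031, 0.0028 and -0.0036 over all genes. Without NDST3 replicate 2 it was -0.46, beside -0.041, and members were still called. DESeq2 on all libraries called 15 members lower and 3 higher, beside 2428 and 2804 of 20328 genes.

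Against sham, which is also the control of the first comparison, the NDST3-treated PD model had 0 of the 38 genes and 0 of all 19300 past the adjusted threshold with edgeR. Among the members, 9 had an edgeR raw p under 0.05, as did 2744 of all 19300 genes. DESeq2 called 6 members higher and 1 lower, beside 845 and 203 of 20328 genes. By the 2-fold rule, 3 members were higher (4.78% of all genes) and 0 were lower (1.08% of all genes). These were Hmox1, 2.73-fold above sham (log2 1.45 ± 0.30, edgeR adjusted p = 0.172), Ftl1, 2.71-fold (log2 1.44 ± 0.27, edgeR adjusted p = 0.163), and Nfe2l2, 2.05-fold (log2 1.04 ± 0.16, edgeR adjusted p = 0.152). Prdx6 was 1.93-fold above sham (edgeR adjusted p = 0.167), and Gstm1, at 121 and 108 CPM with NDST3, had a log2 fold change of -0.46 ± 0.10 (edgeR adjusted p = 0.175). The NDST3 libraries lay wholly above sham in 16 of the 38 genes and wholly below in 9, where 26.5% and 22.4% of all tested genes did so. Mt2, Mt1, Gpx1, Slc40a1 and Prdx1 were 1.96, 1.59, 1.49, 1.42 and 1.39-fold above sham (edgeR adjusted p from 0.187 to 0.386). Mt3, Pgd, Gpx3, Sod2 and Cat had log2 fold changes against sham from -0.12 (Sod2) to 0.18 (Pgd). In all, 23 members had a log2 fold change above 0 and 15 had one below 0. The members' median was 0.13, beside 0.0099 over all tested genes.

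Other genes of these and linked systems, among them NADPH oxidase subunits, were counted from lists of 128 genes, of which 118 were tested. The lists were chosen with earlier results of these data known. In the lesion 43 were higher and 13 lower (edgeR), where 18.8% and 17.1% of all tested genes were, and the median log2 fold change was 0.35, beside -0.0025 over all tested genes. Of the NADPH oxidase subunits, which make superoxide in phagocytes, 6 of 8 tested were higher, and their median was 3.28. Cybb, the catalytic subunit, had 8.56 and 1.84 CPM in sham and 109 CPM in the lesion (log2 4.41 ± 0.90, edgeR adjusted p = 0.0209), and its partner Cyba had 9.14 and 4.5 against 94.7 CPM (log2 3.80 ± 0.48, edgeR adjusted p = 0.00869). Slc11a1, the phagosomal metal transporter, had 7.05 and 3.20 against 81.5 CPM (log2 4.0 ± 0.48, edgeR adjusted p = 0.0085). Among the falls were the mitochondrial malic enzyme gene Me3 (log2 -1.10 ± 0.17), the carbonyl reductase gene Cbr1 (log2 -1.05 ± 0.12) and the transporter gene Abcc5 (log2 -0.96 ± 0.14; edgeR adjusted p from 0.00842 to 0.0116).

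By list, to be read against the same 18.8% higher and 17.1% lower of all tested genes, 3 of 10 NRF2 partners and repressors were higher and 1 lower in the lesion, 6 of 33 other glutathione enzymes were higher and 6 lower, and 5 of 17 other thioredoxin and repair enzymes were higher and 0 lower. Of 20 other NRF2-linked detoxification genes 8 were higher and 3 lower, of 13 other NADPH suppliers 7 and 1, and of 17 other iron and ferroptosis genes 8 and 2. With NDST3 against 6-OHDA, 16 of the 118 were lower and 5 higher, where 6.59% and 9.06% of all tested genes were. The largest falls were those of Gstm2 (log2 -2.38 ± 0.55), Akr1b8 (log2 -2.02 ± 0.47) and Steap3 (log2 -1.89 ± 0.40; edgeR adjusted p from 0.0448 to 0.0499). Cbr1 (log2 0.97 ± 0.12), Me3 (log2 0.79 ± 0.17) and Ggt7 (log2 0.77 ± 0.11) had the largest rises (edgeR adjusted p from 0.032 to 0.0458). Of the NADPH oxidase subunits 1 of 8 was lower, and the log2 fold change of Cybb was -1.42 ± 0.85 (edgeR adjusted p = 0.28).

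The scRNA-seq table gives the mean expression of each gene in 9 cell clusters of the 6-OHDA-induced and the NDST3-treated PD model, 1 library each, and the sham library was not analysed here. Values are means of log-normalized expression, so differences rather than ratios are given, and with 1 library per group no test was made. The table holds cluster means, and single cells were not analysed here. Clusters were checked against marker lists. Cluster 1 was neutrophil-like, since all 7 neutrophil markers were highest in it, cluster 6 was microglia-like and led by P2ry12 and Tmem119 among others, cluster 7 was endothelial-like, cluster 5 smooth muscle-like, cluster 4 T cell-like and cluster 9 B cell-like. Cluster 3, led by Apoe, Spp1 and Gpnmb, held the highest values of 5 of 7 monocyte or macrophage markers, of which 3 of 7 passed 0.1 in it, and of 3 of 8 microglia markers, all 8 of which passed 0.1 there as they did in clusters 6 and 8, and it was left unnamed. Cluster 2, led by Dbi, Mt3 and Clu, held the highest values of 7 of 8 astrocyte, 6 of 7 oligodendrocyte and 6 of 6 choroid plexus markers and was left unnamed too, as was cluster 8, led by Gm20186 and Il23r. Cluster 8 held the highest values of 5 of 7 innate lymphoid or NK cell markers, and all 8 T cell markers passed 0.1 in it. Neuron markers averaged at most 0.08 in any cluster. Dopaminergic neuron markers averaged 0.21 in cluster 4, where 1 of 9 passed 0.1, at 1.90, and at most 0.14 in any other cluster.

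**Figure D4:**
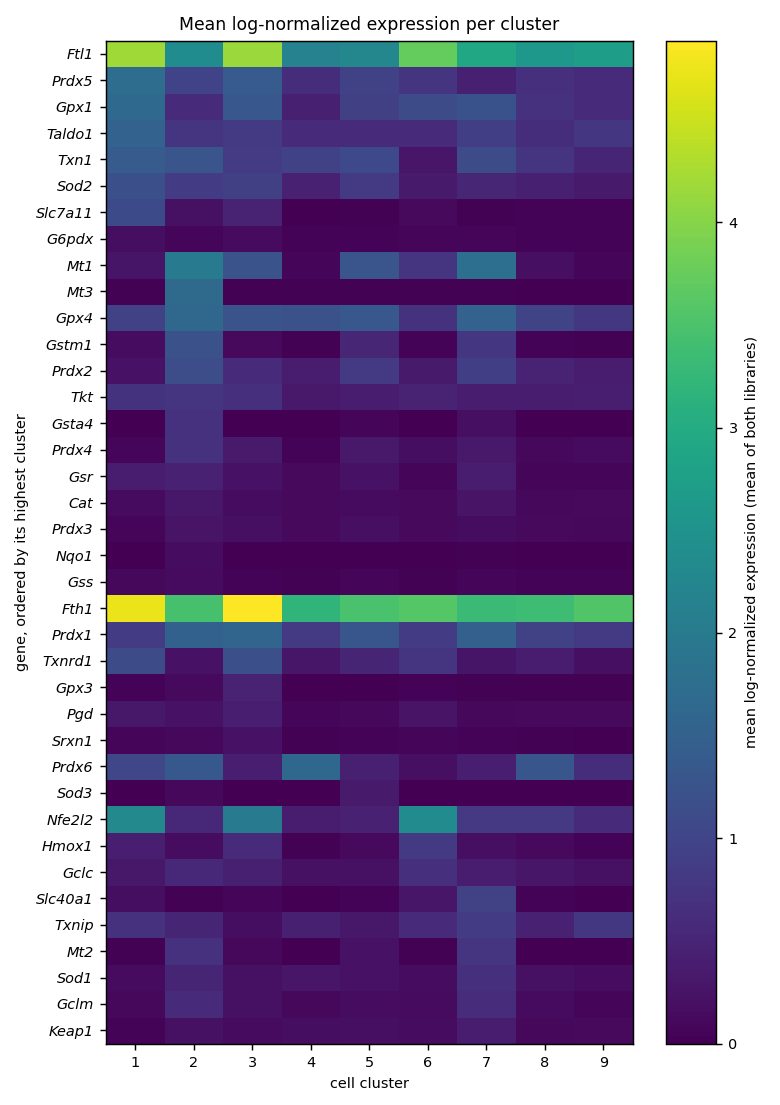
Mean log-normalized expression of each gene (rows, ordered by the cluster in which it is highest) in each of 9 cell clusters (columns), averaged over the 6-OHDA and NDST3 libraries. Fth1 and Ftl1 are the highest rows in all clusters, Nfe2l2 is high in clusters 1, 3 and 6, and Mt3 passes 0.1 in cluster 2 and in no other cluster.

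Of the 38 genes, 17 had their highest mean, averaged over both libraries, in clusters 1, 3 or 6, 13 in cluster 2 and 8 in other clusters. Among all genes tested in RNA-seq with a highest mean above 0.1, these numbers were 2347, 3567 and 5303. Nfe2l2 had 2.23 and 2.36 in cluster 1 (6-OHDA and NDST3, in this order throughout), 1.97 and 2.1 in cluster 3 and 2.30 and 2.42 in cluster 6, and at most 0.84 in every other cluster. Hmox1 was highest in cluster 6, at 0.91 and 0.75, followed by cluster 3 at 0.58 and 0.58 and cluster 1 at 0.34 and 0.47. Ftl1 and Fth1 were present everywhere and highest in clusters 1 and 3, where Ftl1 had 4.10 to 4.23 and Fth1 4.68 to 4.93. Gpx1 (1.78 and 1.57), Prdx5, Txn1, Sod2, Taldo1 and G6pdx were highest in cluster 1, and Prdx1 (1.63 and 1.54), Txnrd1, Srxn1, Gpx3 and Pgd in cluster 3. Slc7a11 was found mainly in cluster 1 and, at 0.52 and 0.46, in cluster 3.

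The genes highest in cluster 2 included Mt3, at 1.73 and 1.64 and at most 0.05 in every other cluster, Mt1 at 2.02 and 2.01, Gstm1 at 1.13 and 1.30, Gsta4 at 0.68 and 0.74, Gpx4 at 1.63 and 1.66, and Prdx2 at 1.10 and 1.22. Nqo1 passed 0.1 in cluster 2 and in no other cluster, with 0.13 and 0.18. Slc40a1 was highest in the endothelial-like cluster 7, at 0.94 and 0.94 with 0.30 and 0.27 in cluster 6. Averaged over both libraries, Mt2, Sod1, Gclm, Txnip and Keap1 also peaked in cluster 7. Txnip in the 6-OHDA library was higher in cluster 9 (0.81) than in cluster 7 (0.78). Gclm in the NDST3 library was higher in cluster 2 (0.64) than in cluster 7 (0.62). Sod3 peaked in the smooth muscle-like cluster 5, at 0.37 and 0.33. Prdx6 had its highest mean in the T cell-like cluster 4, at 1.74 and 1.55. It had 1.28 and 1.40 in cluster 2, 1.47 and 1.13 in cluster 8, 1.03 and 1.05 in cluster 1 and 0.40 and 0.41 in cluster 3. The bulk comparison of lesion and sham was also counted by the cluster of the highest mean, beside all tested genes with their highest mean in the same clusters and above 0.1. Among the 17 genes of clusters 1, 3 and 6, 9 were higher and 1 lower, where 46.4% and 10.7% of all such genes were. Among the 13 of cluster 2, 4 were higher and 3 lower, against 12.7% and 24.4%, and among the other 8, 4 were higher and 2 lower, against 24.9% and 15.9%.

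Between the groups, levels within clusters were close. Of 254 pairs of a member and a cluster with a mean above 0.1 in either group, 1 was higher and 3 were lower with NDST3 by at least 0.25, where 0.653% and 0.736% of all such pairs were. Slc7a11 in cluster 1 was higher, at 0.94 in the 6-OHDA-induced and 1.25 in the NDST3-treated PD model. Ftl1 was lower in cluster 9 (2.90 and 2.54) and cluster 4 (2.32 and 2.0), and Prdx6 was lower in cluster 8 (1.47 and 1.13). In clusters 1, 3 and 6, where Nfe2l2 and Ftl1 were among the highest, Nfe2l2 was higher with NDST3 by 0.12 to 0.13 and Ftl1 differed by -0.11 to 0.09. In the bulk libraries the same 2 genes were lower with NDST3, by 1.00 and 1.52 on the log2 scale, while the summed microglia markers went from 3680.3 to 1298 and 1926 CPM. The part of cell numbers in the bulk difference was not tested.

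H3K27ac, a histone mark of active promoters and enhancers, was measured by CUT&RUN with 2 libraries per group. It was deposited as 1 signal value per region and group, so no test was made. How the 2 libraries of a group enter that value is not given in the sources used here. The 42 regions of members belonged to 21 of the 38 genes. In every 1 of the 11424 regions of the table the signal with NDST3 was at least as high as in the 6-OHDA-induced PD model, so that direction is shared by the whole table and was not read as a result about these genes. How the regions were chosen and the signal scaled is not given in the sources used here. Either could also bear on the comparisons of 6-OHDA with sham and of NDST3 with sham. Ratios were taken after adding 1 to each signal. Regions are described by their distance to the start site in the table, since only 3.39% of the 9080 regions that could be matched to a gene of the RefSeq promoter table lay where that distance puts them on GRCm38 within 200 bases. The other regions were not checked, and no coordinate or sequence was taken from them.

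**Figure D5:**
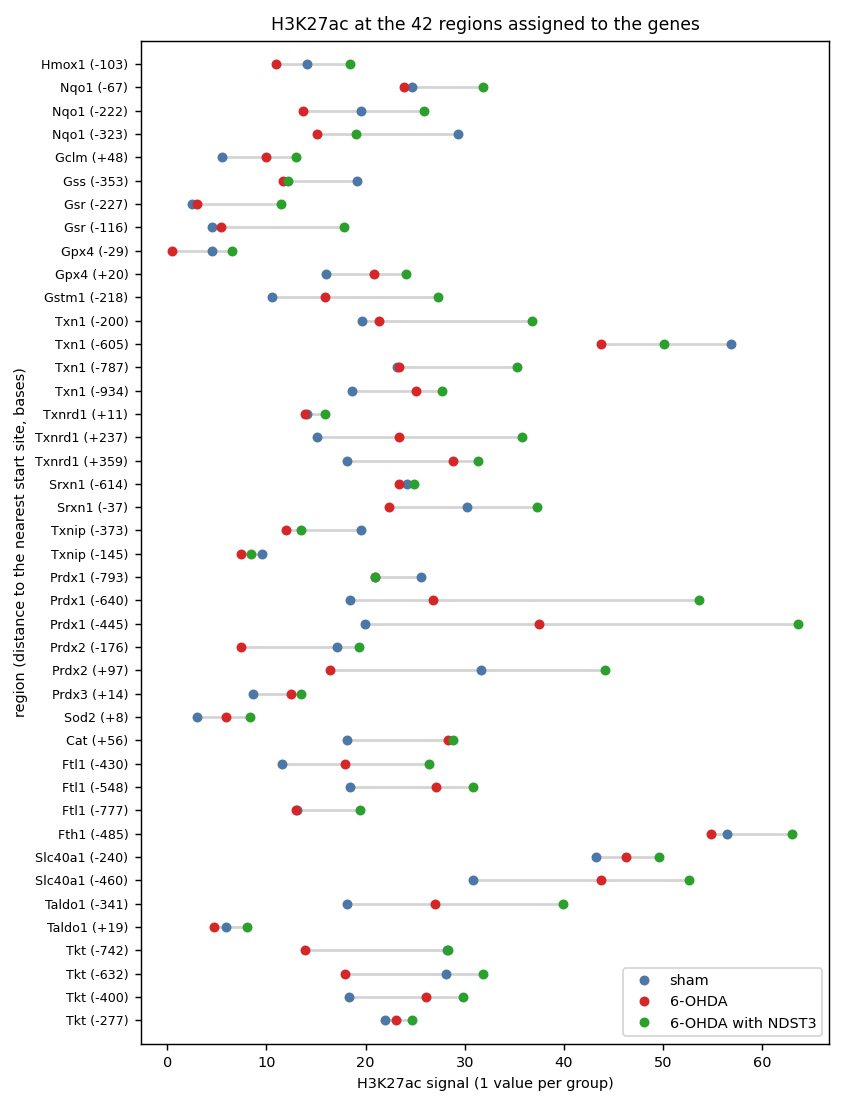
H3K27ac signal of the 42 regions assigned to 21 of the genes, with 1 point per group and the distance to the start site in bases beside each gene. Sham is the highest point in some regions, as at Nqo1 (-323) and Txn1 (-605), and the 6-OHDA point never exceeds the NDST3 point in any region of the table.

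Between the 6-OHDA-induced PD model and sham, 0 of the 42 regions were at least 2-fold higher (7.7% of all regions) and 2 were at least 2-fold lower (4.48% of all regions). These lay at Gpx4, 29 bases before the start site, with 4.5 in sham and 0.5 in the lesion, and at Prdx2, 176 bases before the start site, with 17.11 in sham and 7.45 in the lesion. The Gpx4 value is low in every group and rests on little signal, and a neighbouring Gpx4 region went from 15.97 to 20.85. The other Prdx2 region had 31.69 in sham and 16.40 in the lesion. The median log2 ratio was 0.04 over the members' regions and 0.12 over all regions. Hmox1, whose RNA rose most, had 14.06 in sham and 10.95 in the lesion at its only region, while Ftl1 had 11.56, 18.41 and 13.05 in sham and 17.90, 27.10 and 12.95 in the lesion. Prdx1 had 25.62, 18.44 and 19.95 in sham and 20.90, 26.80 and 37.50 in the lesion. Nfe2l2, Keap1, Prdx6 and the metallothioneins had no region among those analysed.

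With NDST3, 10 of the 42 regions were at least 2-fold above sham (25.5% of all regions) and 0 at least 2-fold below (0.63% of all regions). The median log2 ratio of NDST3 to sham was 0.50 over the members' regions and 0.53 over all regions, so the ratios below are those of a table in which most regions were higher with NDST3. Gsr had the largest ratios, 3.57 and 3.40, with 2.5 and 4.54 in sham, 3.0 and 5.45 in the lesion and 11.50 and 17.84 with NDST3. Prdx1 followed with ratios of 3.08 and 2.81, from 19.95 and 18.44 in sham to 63.62 and 53.60 with NDST3. The others lay at Gstm1 (2.45), Sod2 (2.32), Txnrd1 (2.28), Ftl1 (2.18), Taldo1 (2.14) and Gclm (2.13). Against the lesion, 5 regions were at least 2-fold higher with NDST3 (11% of all regions), at Gpx4, at both regions of Gsr and at both of Prdx2, with the limit of the table given for this direction. In RNA, Gsr with NDST3 was at 38.6 and 41.7 CPM against 47.4 CPM in the lesion and 34.4 and 34.5 CPM in sham, and Prdx2 was at 213 and 213 CPM against 203 CPM and 201 and 209.8 CPM. In ATAC-seq, which measures open chromatin, none of the 2684 genes named in the table was a member.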

How the data were processed

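RNA-seq, CUT&RUN for H3K27ac, ATAC-seq and scRNA-seq tables of mouse brain were used. For RNA-seq the authors trimmed poly(A)-selected reads, aligned them to mm10 with HISAT2, assembled transcripts with StringTie and deposited a read count and a TPM value (normalized for length and depth) per gene. The authors deposited scRNA-seq cluster means of log-normalized values, whose natural log base was read from the values. Against multiplets the authors dropped cells in which over 8000 genes were detected, no doublet caller is named in the sources used here, and none could be run on cluster means. The authors also deposited a signal per region and group for both chromatin assays, with a normalization not given in the sources used here. Other data of the series were not analysed here.

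Counts were tested with edgeR 4.0.16 in R 4.3.3 (TMM factors, default filter, quasi-likelihood, 2 residual degrees of freedom) over 5 libraries, with Benjamini-Hochberg adjustment. The SE is the log2 fold change divided by the square root of F. DESeq2 1.42.0 and limma 3.58.1 on log2(TPM + 1) and log2(TPM + 0.1) were alternatives, beside other scaling factors and filters, only the groups compared, a replicate block and leaving out replicates. Replicates differed by more than sampling noise. Members and other genes of the pathway were chosen with earlier results of these data known. All 38 members are named, and of the pathway lists up to 3 genes per comparison and direction with the largest change among those called. In scRNA-seq a pair was named at a difference of 0.25 with a mean above 0.1, and a region at a 2-fold change, up to 10. Sequences are from RefSeq (GRCm38.p6).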

Additional observations from a re-analysis of the deposited data

How the results depend on the processing

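The direction of every member called at an adjusted p under 0.05 held under each alternative run: of 1596 values of the 38 members, 31 of 14 genes changed sign, and 0 of these had an adjusted p under 0.05. With 1 library in the 6-OHDA group and 2 residual degrees of freedom, calls depend on the spread estimated from the sham and NDST3 pairs, and leaving out a sham library leaves fewer samples for it. Leaving out either sham library removed the calls of the whole table in both comparisons with 6-OHDA. Leaving out NDST3 replicate 1 removed nearly all of them for NDST3 against 6-OHDA. Over the runs that each left out a replicate, the members' median log2 fold change was 0.43 to 0.60 for 6-OHDA against sham. For NDST3 against 6-OHDA it was -0.46 to -0.30. With only the 2 groups compared, NDST3 against 6-OHDA had 0 members and 0 of all 19091 genes called. An edgeR raw p under 0.05 was found for 18 members and 5924 genes.

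The fold rule gave 10 higher and 0 lower for 6-OHDA against sham, 0 higher for NDST3 against 6-OHDA and 3 higher for NDST3 against sham. DESeq2 gave 3 higher for NDST3 against 6-OHDA (2804 of 20328 genes), and 6 higher and 1 lower for NDST3 against sham (845 and 203 genes). With a mean CPM of at least 1, 3 were higher for NDST3 against 6-OHDA (2012 of 15524 genes). With limma on log2(TPM + 1), 10 were lower for 6-OHDA against sham, and 5 were higher and 4 lower for NDST3 against 6-OHDA, and with log2(TPM + 0.1) these last were 4 and 5. These fits change both the measure and the test. Their median over all genes was -0.12 and -0.18 for 6-OHDA against sham and 0.10 and 0.14 for NDST3 against 6-OHDA, and the split of all calls went from 3625 higher and 3291 lower to 2828 and 4567 (pseudocount 1) or 2717 and 4734 (0.1), and from 1748 and 1271 to 2756 and 802 or 2985 and 670. The cause of these shifts was not tested.

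The labels do not say whether libraries with the same replicate number are paired. Deviations of the libraries numbered 1 had r = -0.34 across genes between sham and NDST3. This value cannot decide the question, since it rests on 2 libraries per group and genes are not independent replicates. With the replicate block, 6 members were higher and 0 lower for 6-OHDA against sham, beside 1008 and 788 of all 19300 genes. For NDST3 against 6-OHDA, 0 members and 0 of all genes were called, with 15 members and 4583 genes at an edgeR raw p under 0.05. With the replicate block crossed, an alternative chosen after seeing the data, the counts were 20 higher and 6 lower, 3 higher and 15 lower, and for NDST3 against sham 8 higher and 1 lower. Over all genes these counts were 3845 and 3599, 2506 and 2289, and 1024 and 170.

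In scRNA-seq a size of 0.1 gave 17 pairs higher and 35 lower, and a size of 0.5 gave 0 and 0. For H3K27ac a fold of 1.5 gave 7 regions higher and 8 lower for 6-OHDA against sham, 16 higher for NDST3 against 6-OHDA, and 17 higher and 2 lower for NDST3 against sham, and a pseudocount of 5 gave 0 lower for 6-OHDA against sham and 6 higher for NDST3 against sham. The shares of all pairs and all regions at these settings were not counted, so these counts are not read as results about the members. No ATAC-seq alternative could give a value, since no region was a member's.

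Signs changed with limma (pseudocounts of 1 and 0.1) for 6-OHDA against sham in Slc7a11 (-0.054 and -0.055) and Gpx4 (-0.079 and -0.079), and for NDST3 against 6-OHDA in Gss (0.066 and 0.068) and Prdx3 (0.15 and 0.15), and with the replicate block in Prdx3 (0.025). With the crossed block they changed in Slc7a11 (-0.11) for 6-OHDA against sham and in Slc7a11 (0.0067), Gss (0.026) and G6pdx (-0.0053) for NDST3 against 6-OHDA. Leaving out each replicate changed the sign for 6-OHDA against sham in Slc7a11 (-0.18 to 0.47) and Prdx2 (-0.047 to 0.014), and for NDST3 against 6-OHDA in Gss (-0.28 to 0.074), Prdx3 (-0.051 to 0.0015) and G6pdx (-0.011 to 0.014). For NDST3 against sham it did so in Nqo1 (-0.29 to 0.25), Slc7a11 (-0.42 to 0.23), Gpx3 (-0.16 to 0.27), Txn1 (-0.0017 to 0.38), Txnrd1 (-0.034 to 0.30), Txnip (-0.26 to 0.80), Prdx5 (-0.11 to 0.031), Sod3 (-0.54 to 0.050) and Mt3 (-0.023 to 0.10).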
